A study of Sus scrofa with 6 samples.

Results

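PCK2, the mitochondrial enzyme that makes phosphoenolpyruvate from oxaloacetate, was described together with genes of serine synthesis and of the ATF4 response in lungs of fetal and neonatal piglets. The 10 genes were chosen by their symbols and comprised PCK2, the serine synthesis enzymes PHGDH, PSAT1 and PSPH, the serine- and folate-using enzymes SHMT1, SHMT2 and MTHFD2, asparagine synthetase ASNS, the transcription factor ATF4 and its target TRIB3. Of these, 6 had a matching row among the 14579 mRNAs, each found through a reference table of gene names. No row could be matched to SHMT1, SHMT2, ATF4 or TRIB3, while 4739 rows carried no symbol at all, and these 4 genes were not analysed here. The fetal group held 3 female piglets taken by caesarean on the last day before birth, and the neonatal group held 3 female piglets sampled 2 days after birth. All 6 were crosses of Tibetan sires with Meishan dams, and the fetal and neonatal piglets came from separate sets of sows. No treatment is named. Each piglet gave 1 library of whole lung tissue. Levels are in FPKM, fragment counts divided by transcript length and sequencing depth, so that different genes can be compared per length. The tissue label was checked against lung genes: the surfactant gene SFTPC averaged 3508 FPKM in the fetal and 6373 FPKM in the neonatal group, and AGER of alveolar type I cells averaged 583 and 605 FPKM.

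Serine is made from the glycolytic intermediate 3-phosphoglycerate in consecutive steps by PHGDH, PSAT1 and PSPH. Serine hydroxymethyltransferases then pass a carbon of serine to folate, and MTHFD2 oxidises that folate in mitochondria, which supplies purine and thymidylate synthesis. PCK2 returns carbon from the mitochondrial oxaloacetate pool to phosphoenolpyruvate, from which the same precursors can be reached. ATF4 is translated when eIF2 is phosphorylated during amino acid shortage or endoplasmic reticulum (ER) stress. It is known to induce PCK2, PHGDH, PSAT1, PSPH, SHMT2, MTHFD2, ASNS and TRIB3 in cultured cells.

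The transcript on which the results turn is PCK2, which the study itself had reported as significantly higher in neonatal lungs on these same samples. The study also reported a qRT-PCR check of PCK2, for which it designed a pair of primers. They are printed 5′ to 3′ in lower case with no part marked, and the qRT-PCR values were not used here.
PCK2 forward primer: ctgggaaggcattgatcagc
PCK2 reverse primer: agcgagagttaggatgtgca

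PCK2 was the only one of the 6 measured genes that passed the threshold in limma, an adjusted p of 0.05 or less, and it was higher after birth. Fetal1, Fetal2 and Fetal3 had 2.34, 1.70 and 2.16 FPKM of PCK2. Neonatal1, Neonatal2 and Neonatal3 had 6.40, 9.06 and 9.80 FPKM. The lowest neonatal value thus lay well above the highest fetal value. The group means were 2.07 ± 0.328 and 8.42 ± 1.78 FPKM (SD, n = 3 each), a ratio of 4.07. Fold changes are given as log2(FC), neonatal minus fetal, of FPKM + 1, a scale on which changes of low genes appear smaller than they are. That of PCK2 was 1.61 (standard error 0.22, 95% interval 1.10 to 2.11, adjusted p = 0.00863). The samples are whole tissue, in which more cells of a type and more RNA per cell cannot be told apart. A larger log2(FC) was seen for 400 of the 14579 mRNAs. The adjusted p of PCK2 was 0.0584 without Fetal2 and 0.0511 without Neonatal2, and it lay between 0.0203 and 0.0463 with any other sample left out.

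The 6 genes gave 1 call higher and 0 calls lower, with p-values adjusted over all mRNAs. Among all mRNAs the calls made up 6.87%, with 5.41% higher after birth and 1.45% lower. The share of calls that were higher was 78.8% on the deposited FPKM, 66% after median-of-ratios scaling, 57.9% after quantile normalization and 28.9% after scaling each sample to the same summed FPKM. The summed FPKM lay between 339491 and 471220 in the fetal and between 491548 and 777982 in the neonatal group, and the median log2(FC) of all mRNAs moved from 0.13 to -0.31 with the last scaling. PCK2 kept an adjusted p between 0.00597 and 0.0345 in all 8 alternative fits with 6 samples. Relative to the median of all mRNAs in the same fit, its log2(FC) lay between 1.46 and 1.81.

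**Figure D1:**
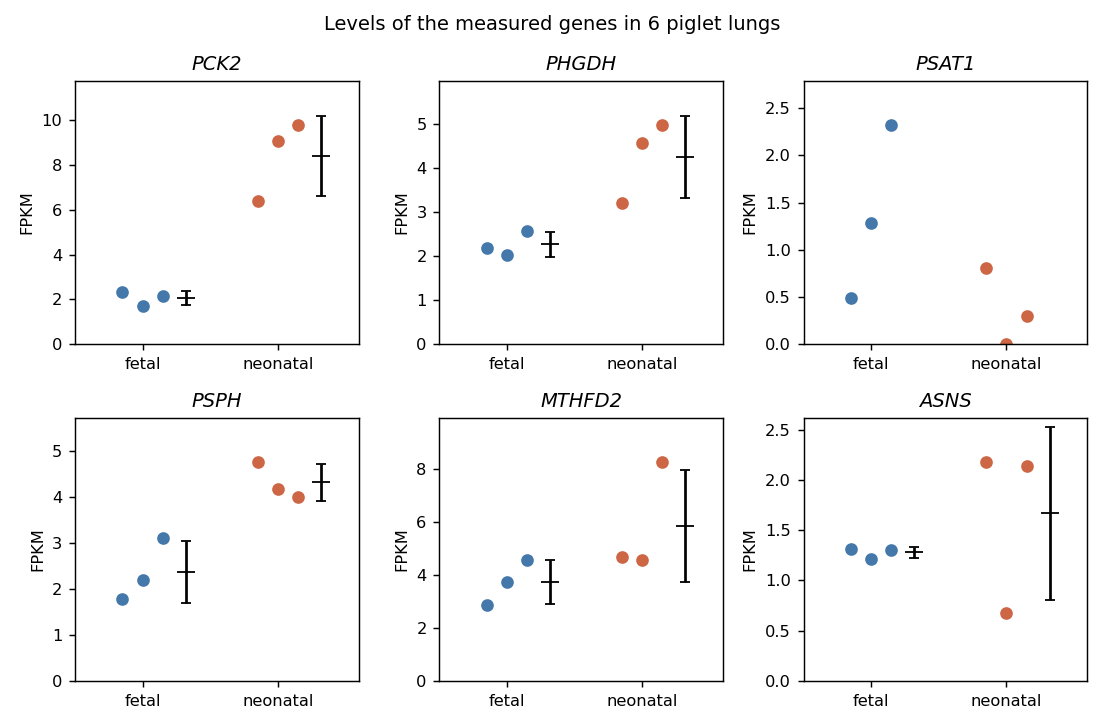
Level of each measured gene in FPKM (y axis, linear from 0) in the 3 fetal (blue) and 3 neonatal (orange) lungs, from replicate 1 at the left to replicate 3 at the right; black bars give the mean and SD, which are left out for PSAT1 because 1 of its values is listed at 0. PCK2 ran from 1.70 to 2.34 FPKM before birth and from 6.40 to 9.80 FPKM after it, whereas PSAT1 and ASNS overlapped between the groups.

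Of the serine synthesis enzymes, PHGDH and PSPH had higher values in every neonatal than in every fetal sample, but neither passed the threshold. PHGDH, which catalyses the first committed step, had between 2.03 FPKM in Fetal2 and 2.57 FPKM in Fetal3, with Fetal1 at 2.196 FPKM. After birth its level was 3.20, 4.57 and 4.98 FPKM. The log2(FC) of PHGDH was 0.67 (standard error 0.21, 95% interval 0.18 to 1.17, adjusted p = 0.107). PSPH, the phosphatase of the last step, had 1.79, 2.19 and 3.10 FPKM before birth against 4.77, 4.17 and 4.002 FPKM after birth. Its neonatal values were the less variable ones, with a coefficient of variation of 9.3% against 28.5% before birth. The log2(FC) of PSPH was 0.68 (standard error 0.21, 95% interval 0.18 to 1.17, adjusted p = 0.106). After scaling to the same summed FPKM the log2(FC) was 0.23 for PHGDH (adjusted p = 0.509) and 0.24 for PSPH (adjusted p = 0.580). For scale, 24.2% of all mRNAs had an unadjusted p under 0.05, as did both of these genes.

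PSAT1, the aminotransferase between PHGDH and PSPH in the pathway, had the opposite sign. Its level was 0.493, 1.28 and 2.32 FPKM in Fetal1, Fetal2 and Fetal3. Neonatal1 and Neonatal3 had 0.804 and 0.302 FPKM, while PSAT1 was listed at 0 in Neonatal2. The groups overlapped, because Fetal1 lay below Neonatal1. The log2(FC) was -0.76 (standard error 0.35, 95% interval -1.59 to 0.07, adjusted p = 0.242). It was -0.55 without Neonatal2, and over all fits with 1 sample left out it lay between -0.47 without Fetal3 and -1.05 without Fetal1. After scaling to the same summed FPKM it was -0.96 (adjusted p = 0.134), and with a pseudocount of 0.1 it was -1.92 (adjusted p = 0.247). PSAT1 was the lowest of the 6 genes in every neonatal sample and ranked 6, 5 and 4 of 6 in Fetal1, Fetal2 and Fetal3. In proportion to PSPH in the same sample, PSAT1 had 0.275, 0.586 and 0.749 times its FPKM before birth and 0.169, 0 and 0.0754 times after birth, so that this ratio, picked after its values had been seen and not tested, did not overlap between the groups. The ratio of PSAT1 to PHGDH did overlap, at 0.224, 0.632 and 0.903 before and 0.251, 0 and 0.0606 after birth.

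MTHFD2, the mitochondrial methylenetetrahydrofolate dehydrogenase, had 2.89, 3.73 and 4.56 FPKM before birth and 4.67, 4.58 and 8.29 FPKM after birth. The groups did not overlap, yet Fetal3 and Neonatal2 were nearly equal and Neonatal3 stood above all others. The log2(FC) of MTHFD2 was 0.51 (standard error 0.26, 95% interval -0.11 to 1.13, adjusted p = 0.285), and it was 0.27 without Neonatal3 and 0.02 after scaling to the same summed FPKM (adjusted p = 0.958). ASNS, which makes asparagine from aspartate and glutamine, was close to uniform before birth, at 1.32, 1.21 and 1.31 FPKM. After birth it stood at 2.18, 0.675 and 2.14 FPKM, so that Neonatal2 lay below and the others above the fetal samples. The log2(FC) of ASNS was 0.17 (standard error 0.29, 95% interval -0.50 to 0.84, adjusted p = 0.752), 0.47 without Neonatal2 and -0.17 after scaling to the same summed FPKM. The median log2(FC) of the 6 genes was 0.59, beside 0.13 for all mRNAs. In 4 of the 6 genes all neonatal values lay above all fetal ones, which held for 20.9% of all mRNAs. In 0 of the 6 all neonatal values lay below all fetal ones, which held for 9.64% of all mRNAs.

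**Figure D2:**
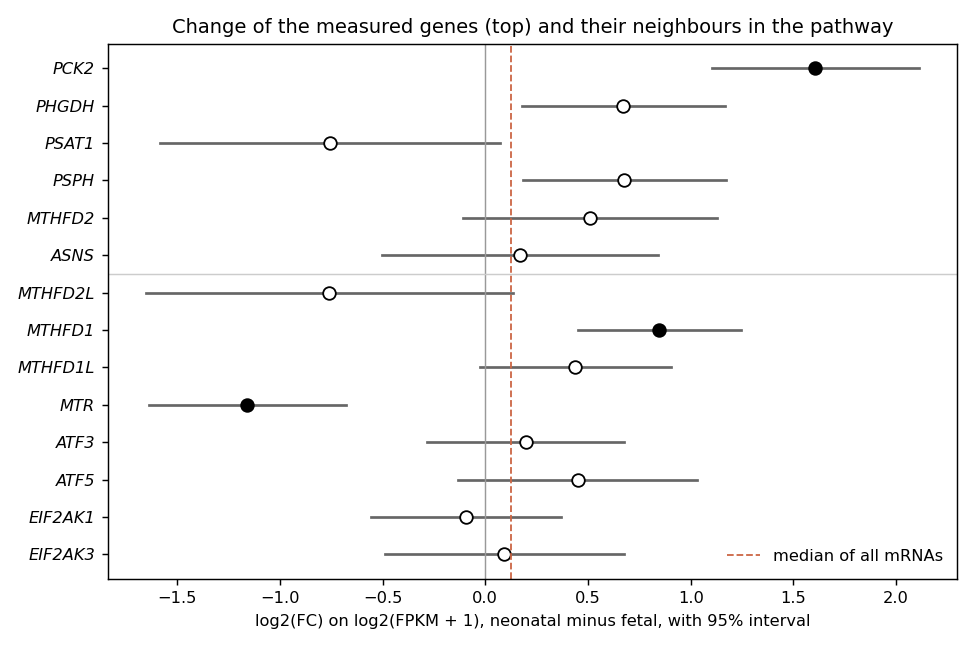
The log2(FC) of neonatal minus fetal on the log2(FPKM + 1) scale (x axis) with 95% intervals for the 6 measured genes above the grey line and for 8 genes of the folate pathway and the ATF4 response below it; filled circles passed the threshold in limma, open ones did not, and the dashed line is the median of all mRNAs. PCK2 stood farthest to the right at 1.61, and PSAT1, MTHFD2L, MTR and EIF2AK1 lay to the left of 0.

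The order of the levels differed between the groups. MTHFD2 had the highest FPKM of the 6 genes in all 3 fetal samples, and PCK2 ranked second in Fetal1, with 4 and 5 of 6 in Fetal2 and Fetal3. In all 3 neonatal samples PCK2 had the highest level. By group mean the fetal order was MTHFD2 at 3.72, PSPH at 2.36, PHGDH at 2.27 and PCK2 at 2.07 FPKM, and each neighbour overlapped the next over the samples. The neonatal order was PCK2 at 8.42, MTHFD2 at 5.85, PSPH at 4.31 and PHGDH at 4.25 FPKM, with the same overlap between neighbours. ASNS at 1.28 and 1.67 FPKM came below these in both groups. None of the 6 genes was abundant: in mean level over all samples PCK2 stood at percentile 47.1 of the mRNAs, MTHFD2 at 44.3, PSPH at 35.1, PHGDH at 34.5, ASNS at 19.3 and PSAT1 at 12.4.

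Proportions within a sample do not depend on how the samples are scaled. PCK2 made up 21.2%, 14.0% and 13.5% of the summed FPKM of the 6 genes in the fetal samples, and 29.1%, 39.3% and 33.2% in the neonatal samples, without overlap. The FPKM of PCK2 was 1.07, 0.839 and 0.839 times that of PHGDH before birth and 2.00, 1.98 and 1.97 times after birth. Against PSPH the same ratio was 1.31, 0.778 and 0.696 before and 1.34, 2.17 and 2.45 after birth, so that Fetal1 and Neonatal1 were nearly equal. These ratios were chosen after the values had been seen and were not tested. After scaling to the same summed FPKM, PCK2 had 5.50, 5.02 and 4.58 FPKM per 1000000 of summed FPKM before birth and 13.0, 15 and 12.6 after birth. On this scale PHGDH, at 5.16 to 5.98 and 6.40 to 7.57, also stayed without overlap. PSPH, at 4.21 to 6.58 and 5.14 to 9.70, and MTHFD2, at 6.79 to 10.98 and 7.58 to 10.66, overlapped between the groups.

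**Figure D3:**
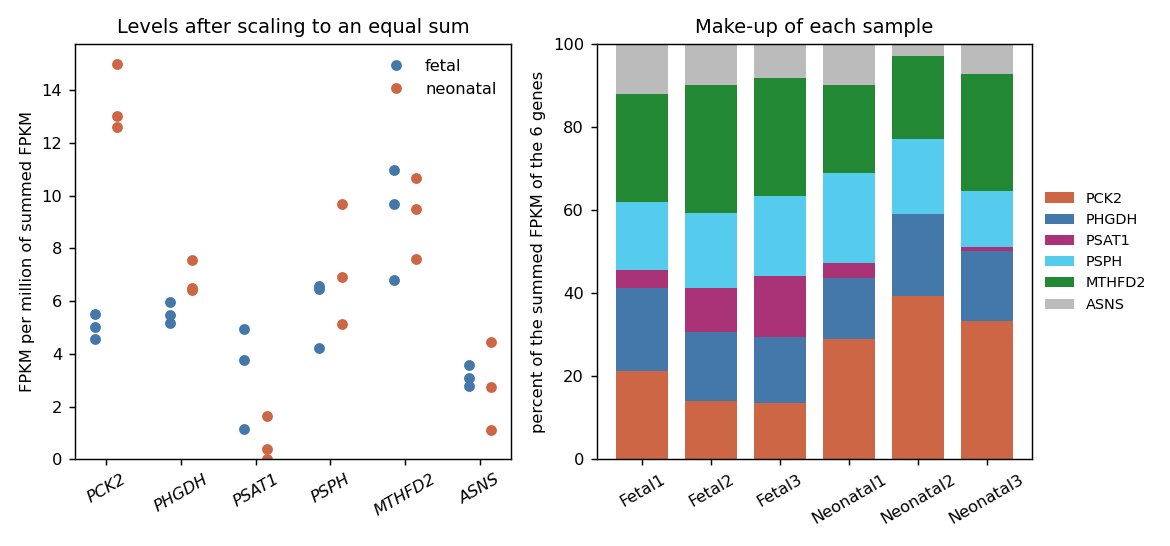
Left, FPKM per 1000000 of the summed FPKM of a sample (y axis, linear from 0) for each gene in fetal (blue) and neonatal (orange) lungs; right, the percent of the summed FPKM of the 6 genes that each gene took in each sample. PCK2 stood at 4.58 to 5.50 before and 12.6 to 15 after birth on the left, and its part of the bars grew from at most 21.2% to at least 29.1%.

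Marker genes of the cell types that whole lung could hold were measured beside these results. All counts of calls among them stand beside 5.41% called higher and 1.45% lower among all mRNAs. In sets of so few genes, 0 calls do not show that nothing changed. Of 16 listed proliferation markers 10 were measured, and all 10 were called higher. The summed level of these 10 was 20.2 to 23.3 FPKM in the fetal and 154 to 194 FPKM in the neonatal samples. Of 5 neutrophil markers, S100A8, S100A9 and S100A12 were higher, CSF3R was not past the threshold and ELANE was listed at 0 in all neonatal samples. The summed level of these 5 was 81.7 to 155 FPKM before and 842 to 1311 FPKM after birth. Summed levels of alveolar type II (4912 to 5503 and 6660 to 11830 FPKM, 0 of 9 genes called), endothelial (558 to 691 and 717 to 982 FPKM, 0 of 8) and mesenchymal markers (1179 to 1571 and 2122 to 2986 FPKM, 2 of 8, ACTA2 and TAGLN) also did not overlap between the groups. Single endothelial markers did not move together: 3 had a positive and 5 a negative log2(FC), with a median of -0.15. CLDN5 had 198 to 265 FPKM before and 377 to 617 FPKM after birth. In KDR and EMCN all neonatal values lay below all fetal ones. The summed level of macrophage markers overlapped, at 413 to 966 and 706 to 1650 FPKM, with 0 of 8 called. All 8 nevertheless had a positive log2(FC), with a median of 0.96. In 3 of the 8 all neonatal values lay above all fetal ones, which held for 20.9% of all mRNAs. Per 1000000 of summed FPKM the macrophage sum was 1216 to 2272 and 1436 to 2261. Summed levels of alveolar type I (0 of 4 called), erythroid (0 of 5), lymphocyte (0 of 7) and ciliated (0 of 4) markers overlapped as well. Per 1000000 of summed FPKM, proliferation (45.2 to 59.4 and 250 to 313) and neutrophil markers (190 to 364 and 1685 to 1938) stayed higher after birth without overlap. Alveolar type II, endothelial and mesenchymal markers overlapped on that scale. The sums of alveolar type I (2466 to 2653 and 1467 to 1838), erythroid (3611 to 5677 and 1818 to 1996), lymphocyte and ciliated markers were lower after birth without overlap. Such sums follow their most abundant genes, as the erythroid sum did HBB, at 2024 and 1152 FPKM by group mean. On the deposited FPKM a positive log2(FC) was seen in 3 of 4 alveolar type I and 2 of 5 erythroid markers. The same held for 2 of 7 lymphocyte and 0 of 4 ciliated markers. The study's list of differential genes, chosen on these samples, gave the names of 2 of the neutrophil, 2 of the endothelial and 1 each of the proliferation, alveolar type II and macrophage genes. The part of these shifts in the level of PCK2 was not tested.

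The genes whose pattern over the 6 samples was most like that of PCK2 were named by Pearson's r on log2(FPKM + 1), over 8710 mRNAs with a symbol and a mean FPKM above 1. They were CAVIN3, a caveolar coat protein (r = 0.999), CHAF1A, a histone chaperone subunit of DNA replication (r = 0.999), the cytokine IL1A (r = 0.999), the interleukin 10 receptor subunit IL10RA (r = 0.998) and MPEG1, a pore-forming protein of macrophages (r = 0.998). CAVIN3 stood at 26.0 to 32.4 FPKM in the fetal and at 66.5 to 90.4 FPKM in the neonatal samples, and MPEG1 at 4.32 to 5.26 and 23.0 to 36.5 FPKM. Among the genes described here, PHGDH had r = 0.962 with PCK2, PSPH 0.828, MTHFD2 0.716 and ASNS 0.195, and PSAT1 was below the limit on the mean. All these coefficients rest on 6 points from the same libraries that fall into 2 groups, and they are given as a description.

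Of 28 listed enzymes of folate and glycine metabolism other than those above, 14 were measured. Of these, 1 was called higher, 1 lower and 12 were not past the threshold, beside 5.41% higher and 1.45% lower among all mRNAs. With the samples scaled to the same summed FPKM, 0 were called higher and 2 lower. Their median log2(FC) was -0.25, or -0.59 after scaling to the same summed FPKM. MTHFD1, the cytosolic trifunctional folate enzyme, rose from 7.96, 6.75 and 7.42 FPKM to 12.7, 15.4 and 14.2 FPKM, with a log2(FC) of 0.85 (adjusted p = 0.0301). MTR, the methionine synthase that uses methyl folate, fell from 7.12, 6.995 and 6.32 FPKM to 2.85, 2.95 and 1.81 FPKM, with a log2(FC) of -1.16 (adjusted p = 0.0206). Both groups of values were apart by more than the spread within them. Both genes lost the call without Fetal1, Fetal2, Fetal3, Neonatal2 or Neonatal3, with adjusted p values up to 0.122 for MTHFD1 and 0.105 for MTR. After scaling to the same summed FPKM, MTHFD1 stood at 0.31 (adjusted p = 0.373) and MTR at -1.60 (adjusted p = 0.0249).

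MTHFD1L, the mitochondrial partner that releases formate, had 2.07, 2.1955 and 1.39 FPKM before and 2.82, 2.87 and 2.95 FPKM after birth, and a log2(FC) of 0.44 (adjusted p = 0.229). MTHFD2L, the isozyme of MTHFD2, had the opposite sign, with 4.47, 7.88 and 3.64 FPKM before and 2.67, 1.27 and 4.57 FPKM after birth, overlapping groups and a log2(FC) of -0.76 (adjusted p = 0.269). SFXN1, a carrier of serine into mitochondria, had 3.40, 2.63 and 1.95 FPKM before and 4.11, 4.96 and 5.67 FPKM after birth, without overlap, and a log2(FC) of 0.70 that did not pass the threshold (adjusted p = 0.110). Isozyme pairs were then compared within samples as log2 ratios of FPKM + 1. The ratio of MTHFD2 to MTHFD2L was -0.49, -0.91 and 0.26 in the fetal and 0.63, 1.30 and 0.74 in the neonatal samples. MTHFD2L was therefore the higher of the pair in Fetal1 and Fetal2, and MTHFD2 in Fetal3 and all neonatal samples. The difference of the group means was 1.27 (two-sided exact permutation p = 0.1, which is as small as 3 against 3 can give). The ratio of MTHFD1L to MTHFD1 was -1.55, -1.28 and -1.82 in the fetal and -1.84, -2.08 and -1.95 in the neonatal samples. Fetal3 and Neonatal1 were thus nearly equal, and in FPKM without the added 1 the groups overlapped. For this pair the difference was -0.41 (exact permutation test, two-sided p = 0.1), and both adjusted values over the 2 pairs were 0.1. The pairs of PCK2 with PCK1 and of SHMT2 with SHMT1 were not measured, since PCK1, SHMT1 and SHMT2 had no matched row.

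Targets of ATF4 other than the genes above gave 3 calls, beside 6.87% called among all mRNAs. Of 46 listed targets 34 were measured, and 2 were higher, 1 was lower and 31 were not past the threshold. ALDH18A1, which makes the precursor of proline, rose from 9.85, 6.69 and 7.70 FPKM to 15.5, 13.9 and 16.9 FPKM (log2(FC) 0.87, adjusted p = 0.0426). SLC25A22, a mitochondrial glutamate carrier, rose from 1.98, 1.71 and 1.90 FPKM to 3.93, 4.64 and 3.91 FPKM (log2(FC) 0.85, adjusted p = 0.0353). KLHL24, an adaptor of a ubiquitin ligase, fell from 17.8, 25.2 and 20.4 FPKM to 10.0, 10.9 and 9.95 FPKM (log2(FC) -0.96, adjusted p = 0.0270). Of the 34 targets, 0 were called higher and 4 lower after scaling to the same summed FPKM. Leaving out any single sample ended the call of each of these 3, with adjusted p values up to 0.157, 0.144 and 0.105. ALDH18A1 and SLC25A22 also lost the call after median-of-ratios scaling, at 0.0543 and 0.0583.

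By role, 12 of 12 aminoacyl-tRNA synthetases of the list were measured and 0 were called, beside 6.87% of all mRNAs. Their log2(FC) values lay between -0.35 for YARS1 and 1.16 for MARS1. In 7 of the 12 all neonatal values lay above all fetal ones, which held for 20.9% of all mRNAs. This count is on the deposited FPKM and was not repeated after scaling. MARS1, the methionine enzyme, had 3.84, 3.52 and 2.23 FPKM before birth and 4.51, 16.1 and 7.27 FPKM after it, with Neonatal2 far above the other samples (adjusted p = 0.141). Of 9 listed amino acid transporters 5 were measured and 0 were called, beside the same 6.87%. SLC7A1, a carrier of cationic amino acids, had 0.424 to 1.58 and 2.46 to 2.91 FPKM (adjusted p = 0.0693). Among the transcription factors, ATF3 had 3.87 to 5.89 and 4.96 to 6.44 FPKM (log2(FC) 0.20, adjusted p = 0.589), and ATF5 had 4.54 to 7.10 and 5.82 to 9.96 FPKM (log2(FC) 0.45, adjusted p = 0.312). The sign of both turned after scaling to the same summed FPKM, to -0.29 and -0.05, as did the median of the 34 genes, from 0.33 to -0.18. CTH, which makes cysteine from the product of serine and homocysteine, had 3.01, 4.15 and 3.61 FPKM before and 0.898, 2.09 and 2.00 FPKM after birth, without overlap (log2(FC) -0.81, adjusted p = 0.104). No row was matched to DDIT3 or CHAC1.

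The mRNAs of the machinery upstream of ATF4 were measured as well, but the phosphorylation of eIF2 was not. Of 21 listed genes for eIF2 kinases, eIF2, its exchange factor eIF2B and their regulators, 16 were measured and 0 passed the threshold, beside 6.87% of all mRNAs. They had a median log2(FC) of 0.30 that became -0.27 after scaling to the same summed FPKM. EIF2AK3, the kinase PERK that responds to ER stress, had 5.27 to 9.08 FPKM before and 6.48 to 10.03 FPKM after birth. The groups overlapped, and the 95% interval of its log2(FC) of 0.09 ran from -0.49 to 0.68, while the sign turned with each of the 3 scalings, to -0.42 with the same summed FPKM. EIF2AK1, the kinase that senses heme, had 12.3 to 13.6 and 9.48 to 14.5 FPKM and a log2(FC) of -0.09 with an interval from -0.56 to 0.37. EIF2AK2 and EIF2AK4 had no matched row.

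**Figure D4:**
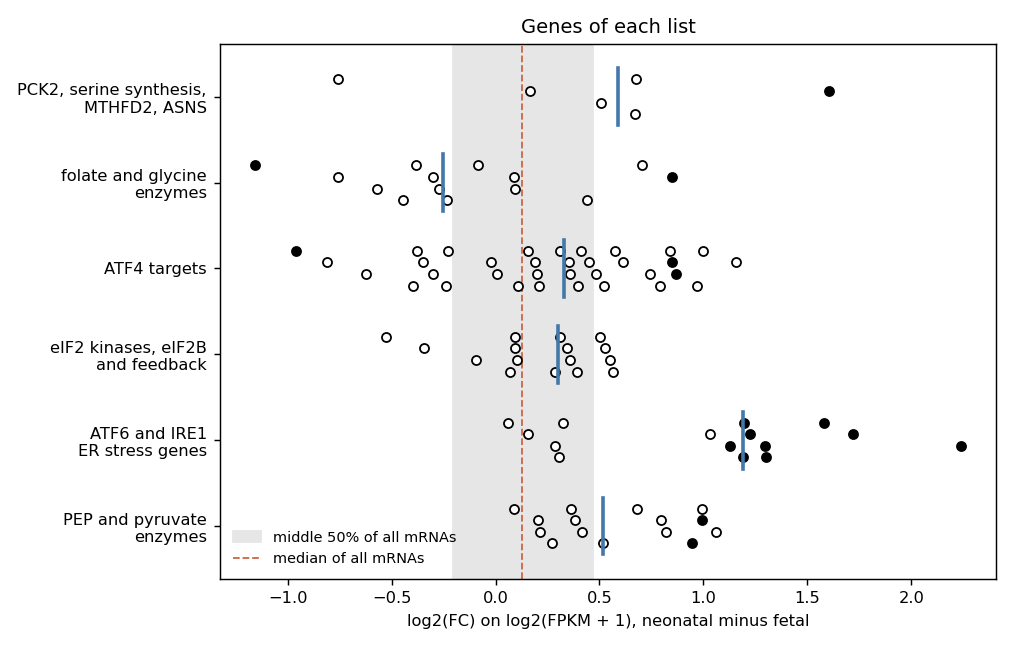
The log2(FC) of neonatal minus fetal on the log2(FPKM + 1) scale (x axis) for each measured gene of 6 lists (y axis); filled circles passed the threshold in limma, blue bars mark the median of a list, the dashed line the median and the grey band the middle 50% of all mRNAs. The ER stress genes of ATF6 and IRE1 had 9 of 15 genes past the threshold, against 3 of 34 of the ATF4 targets and 0 of 16 of the eIF2 genes and 6.87% of all mRNAs. After scaling to the same summed FPKM the counts were 3, all higher, 4, all lower, and 1, which was lower.

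Of the genes of the other ER stress branches, ATF6 and IRE1, 9 were called higher in the neonatal lung and 0 lower, beside 5.41% and 1.45% of all mRNAs. The list held 19 genes, of which 15 were measured, and their median log2(FC) was 1.19. Of these, SDF2L1 and MANF took their names from the study's list of differential genes, and without them 7 of 13 were called higher. The 5 genes with the largest rise were SDF2L1, MANF, CRELD2, DNAJB11 and HYOU1, all of them chaperones or ER luminal proteins. MANF rose from 11.7, 11.4 and 16.2 FPKM to 48.6, 46.3 and 40.4 FPKM (log2(FC) 1.72, adjusted p = 0.00526), and its highest adjusted p was 0.0441 when single samples were left out. SDF2L1 rose from 2.57, 4.63 and 5.06 FPKM to 19.9, 16.6 and 34.0 FPKM (log2(FC) 2.24, adjusted p = 0.0101). CRELD2 rose by a log2(FC) of 1.58 (adjusted p = 0.0109), and DNAJB11 and HYOU1 by 1.30 each (adjusted p = 0.0184 and 0.0119). HSPA5, the main chaperone of the ER, was also called, with 67.7 to 91.6 FPKM before and 159 to 221 FPKM after birth (log2(FC) 1.198, adjusted p = 0.0258). Over the 6 fits with 1 sample left out, SDF2L1 kept the call in 5, CRELD2 and HYOU1 in 2, and DNAJB11 and HSPA5 in 1. After scaling to the same summed FPKM the adjusted p was 0.0531 for DNAJB11, 0.0536 for HYOU1 and 0.0618 for HSPA5, while SDF2L1, MANF and CRELD2 kept the call. The transcription factors of these branches, XBP1 at 137 ± 12 and 153 ± 24.3 FPKM and ATF6 at 11.6 ± 0.700 and 14.7 ± 2.37 FPKM (SD, n = 3 each), did not pass the threshold. The number of calls was 3 after scaling to the same summed FPKM, 4 without Fetal3, 2 without Fetal1, Neonatal2 or Neonatal3, and 1 without Fetal2.

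Of 21 enzymes and carriers of phosphoenolpyruvate and pyruvate, 15 were measured, FBP1 by a name from the study's list of differential genes. All 15 had a positive log2(FC), with a median of 0.52 that became 0.01 after scaling to the same summed FPKM, where 0 were called. Past the threshold, beside 5.41% of all mRNAs called higher, were MDH2, the mitochondrial malate dehydrogenase that makes oxaloacetate, the substrate of PCK2, and ENO1, the enolase that acts on phosphoenolpyruvate. The study had itself reported MDH2, like PCK2, as significantly higher after birth on these same samples. MDH2 rose from 12.4, 9.14 and 9.54 FPKM to 17.5, 24.2 and 23.3 FPKM (log2(FC) 1.00, adjusted p = 0.0329). It kept the call only without Neonatal1 when single samples were left out, with adjusted p values up to 0.137, as did ENO1 (log2(FC) 0.94, adjusted p = 0.0317) with values up to 0.112. Pyruvate carboxylase PC, the other mitochondrial source of oxaloacetate, had 0.424 to 1.26 FPKM before and 0.684 to 1.26 FPKM after birth (log2(FC) 0.09, adjusted p = 0.854).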

How the data were processed

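The authors mapped quality-filtered reads of strand-specific, ribosome-depleted libraries to Sscrofa10.2 with TopHat 2.1.0 and computed FPKM per gene with Cufflinks 2.2.1. The deposited mRNA table holds this FPKM for 6 samples, all 14579 genes having more than 0.5 FPKM in at least 1 sample, and 0 value columns were left unmatched. The lncRNA table was not used here. The tables hold no read counts, so the depth behind single values is unknown. Symbols came from a reference table for 9478 genes and from the study's supplementary list of differential genes for 362 more. The members and lists were chosen with earlier results of these data known.

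A linear model on log2(FPKM + 1) with the trend option of limma 3.58.1, run under R 4.3.3, gave the differences, with Benjamini-Hochberg adjustment over all mRNAs. The fit was tested on simulated data. The threshold was an adjusted p of 0.05. Ratios, ranks and exact permutation tests were computed in Python 3.11.15. Named were all members, a few fixed neighbours, and up to 5 genes each way per list past the threshold, and the 5 most like PCK2. SFXN1, CTH, YARS1, MARS1, SLC7A1, HSPA5, XBP1, ATF6, FBP1 and PC were named after their values were seen. Alternatives were pseudocounts of 0.5 and 0.1, FPKM above 1 in at least 3 samples, 3 scalings (median-of-ratios, quantile, equal sum), a fit without the trend, a block for the replicate number, and leaving out each sample.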

Additional observations from a re-analysis of the deposited data

How the results depend on the processing

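The labels give both groups the same replicate numbers. Over the mRNAs, the deviations of same-numbered samples from their group means correlated at -0.041, -0.004 and 0. No pairing over the mRNAs as a whole was thus seen, but one confined to part of the genes would not show in this way. With the replicate block, 401 mRNAs were past the threshold in place of 1001, PCK2 stayed among them, and the counts were 0 for the folate and glycine enzymes, 0 for the ATF4 targets, 4 for the ATF6 and IRE1 genes and 0 for the enzymes of phosphoenolpyruvate and pyruvate. The highest of the 9 correlations between fetal and neonatal samples was 0.054, for Fetal2 and Neonatal1.

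The count of ATF4 targets was 1 after median-of-ratios scaling and 1 after quantile normalization, and that of the phosphoenolpyruvate and pyruvate enzymes was 1 after the latter. After scaling to the same summed FPKM these enzymes gave 0 calls, the ATF6 and IRE1 genes 3 and the eIF2 genes 1, which was lower, the median of the members was 0.13, and ASNS turned to -0.17. The cause was not tested. With 1 sample left out, the log2(FC) of PCK2 lay between 1.498 and 1.77, and 0 or 1 members were past the threshold. Between 196 and 944 mRNAs, 0 and 2 folate genes, 0 and 2 ATF4 targets, 0 and 2 phosphoenolpyruvate and pyruvate enzymes, and 1 and 10 ATF6 and IRE1 genes passed. Both isozyme ratios kept their sign with pseudocounts of 0.5 and 0.1 and with any sample left out.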
